A study of Mus musculus with 23 samples.

Results

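Imprinted genes are expressed from the allele of 1 parent, and 38 of them were followed here by the parent whose allele is expressed. All array probes carrying 1 of these gene symbols were taken, which gave 67 of the 39429 probes; the symbols number 38 of 31829 on the arrays. Of the 38 genes, 18 are expressed from the paternal allele (34 probes), 18 from the maternal allele (28 probes), and Grb10 and Gnas from either allele depending on the transcript (5 probes). The arrays measured total RNA of each gene and did not tell the 2 alleles apart, so the allele given for a gene is background knowledge and not a measurement. The listed allele need not be the only one used in every tissue or brain cell type.

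Whole brains (cerebrum and cerebellum) of 12 adult male progenies were measured at 19 weeks of age, 4 per diet, with 1 Agilent array per mouse. C57BL/6J embryos were produced by in vitro fertilization from parents on a normal diet and were carried by ICR recipient mothers, an outbred stock. The recipients ate the control diet (CD; 20% casein and 0.02% folic acid), the protein-restricted diet (PR; 5% casein and 0.02% folic acid), or the protein-restricted diet with added folic acid (FA; 5% casein and 0.1% folic acid) from before embryo transfer until delivery. Pups of every group were delivered by cesarean section, raised by ICR foster mothers, and given the CD after weaning. The sources used here do not give the litter of each mouse, so p-values measure the spread between these 12 brains. The 4 arrays of a diet shared 1 slide and 1 scan, so diet and slide cannot be told apart in any comparison below.

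Imprinting is set in the germ line, where DNA methylation is written at control regions in the egg or the sperm and is then kept through development. A control region usually governs a cluster of genes, some silenced on the maternal copy and others on the paternal copy, often through a long noncoding RNA. Many imprinted genes act on fetal growth, on the placenta, and on the hypothalamus and other brain regions that govern feeding, maternal care, and energy use. Folic acid feeds the methyl group supply from which DNA methylation is made, and low protein during gestation can limit the growth of the fetus. The study found no difference in birth weight among the CD, PR, and FA groups, measured in female neonates.

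The level of a gene is given as the log2 of its normalized intensity, and a difference as the mean log2 level of 1 group minus that of another. Each gene was described by its representative probe, the probe well above the local background on the most arrays, with the brighter one taken among equals. The representative probe was well above background on all 12 arrays for 37 genes, and that of Phlda2, a placental growth inhibitor, on 0 arrays. Levels spanned 5.57 (Peg10) to 16.86 (Gnas) among the others; 57 of the 67 probes passed on all 12 arrays. The 4 neuronal markers on the arrays were detected in all 12 brains. Spots well above background numbered 27068 to 28458 on the CD arrays and 30408 to 33478 on the PR and FA arrays. The pituitary hormone genes Gh and Prl set the CD brains apart: Gh read 7.73 to 8.37 in CD, was not well above background on any PR array, and passed in FA on replicate 4 alone, at 6.16. Prl read 7.84 to 7.98 in CD, was not well above background in PR, and passed in FA on replicate 4 alone, at 7.35. Both were called lower in PR (adjusted p = 0.000549 and 0.00562) and in FA (adjusted p = 0.00105 and 0.00664). Of the 8 pituitary markers, no other was called in PR. In FA only Ghrhr was called besides them, higher by 0.75 (adjusted p = 0.0116). The part of pituitary tissue in the differences below was not tested.

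An adjusted p under 0.05 was counted as a call. Between PR and CD, 30% of all probes were called (16.6% lower and 13.4% higher in PR), and between FA and CD 34.4% (18% lower and 16.4% higher in FA). With a normexp background correction and quantile normalization the direction of the PR calls over all probes turned from 6532 lower and 5288 higher to 3689 lower and 4663 higher, and that of the FA calls from 7109 lower and 6449 higher to 4828 lower and 6339 higher. Between FA and PR 0.614% of all probes were called (0.386% lower and 0.228% higher in FA). The methods used stricter limits, a 2-fold change and an adjusted p below 0.0001, with a Tukey test. In the limma fit used here, 0.0862% of probes met these limits in PR against CD, 0.195% in FA against CD, and 0% in FA against PR. With the Tukey test, 1 probe met them, lower in FA than in CD, and 0 met them in the other comparisons.

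Of the 67 probes of imprinted genes, 8 were lower and 12 higher in PR than in CD, and 11 were lower and 12 higher in FA than in CD. These shares, 29.9% and 34.3%, were close to those over all probes. With scaling to the 75th percentile, the FA calls were 16 lower and 11 higher. Without CD replicate 2, CD replicate 3, or PR replicate 3, 5 probes were lower in PR, and without CD replicate 1, 7 were lower in FA. The PR and FA comparisons share the 4 CD mice. Between FA and PR limma called 0 of the 67 probes, the Tukey test 0, and 13 had an unadjusted p under 0.05. In the limma fit the stricter limits were met by 1 of the 67 probes, in FA against CD.

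**Figure D1:**
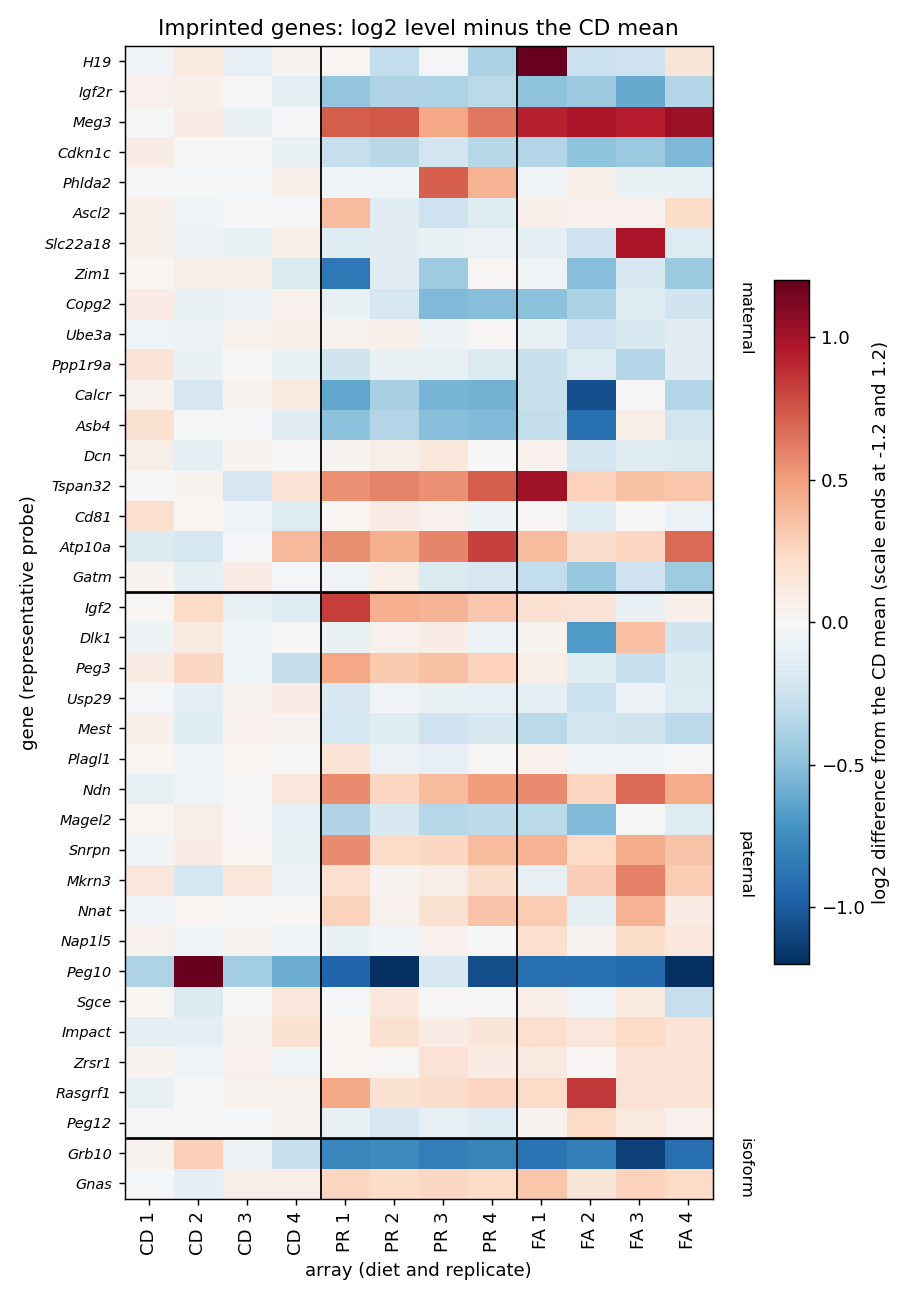
Log2 level of the representative probe of each gene minus its mean in the 4 CD mice, for 12 arrays (columns) and 38 genes (rows, in blocks by expressed allele). The row of Meg3 was higher and the row of Grb10 lower on all 8 PR and FA arrays than in the CD group, and single squares such as H19 on FA 1 and Peg10 on CD 2 stood apart.

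Calls in both directions were found for each parental allele. Among the 18 maternally expressed genes, 3 were lower and 3 higher in PR, with a median difference of -0.10, and 5 were lower and 2 higher in FA, with a median of -0.14. Among the 18 paternally expressed genes, 2 were lower and 4 higher in PR, with a median of 0.05, and 1 was lower and 3 higher in FA, with a median of 0.09. The median over all probes was -0.02 in PR and -0.01 in FA. When scaled to the 75th percentile, the paternal medians were -0.01 in PR and 0.03 in FA, and the maternal medians -0.14 and -0.23. The spread was wide inside each list: maternal genes ran from -0.53 to 0.64 in PR and paternal genes from -0.86 to 0.50. The 8 maternal genes imprinted mainly in the placenta had medians of -0.00 in PR and -0.04 in FA, and the other 10 had medians of -0.31 and -0.30.

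**Figure D2:**
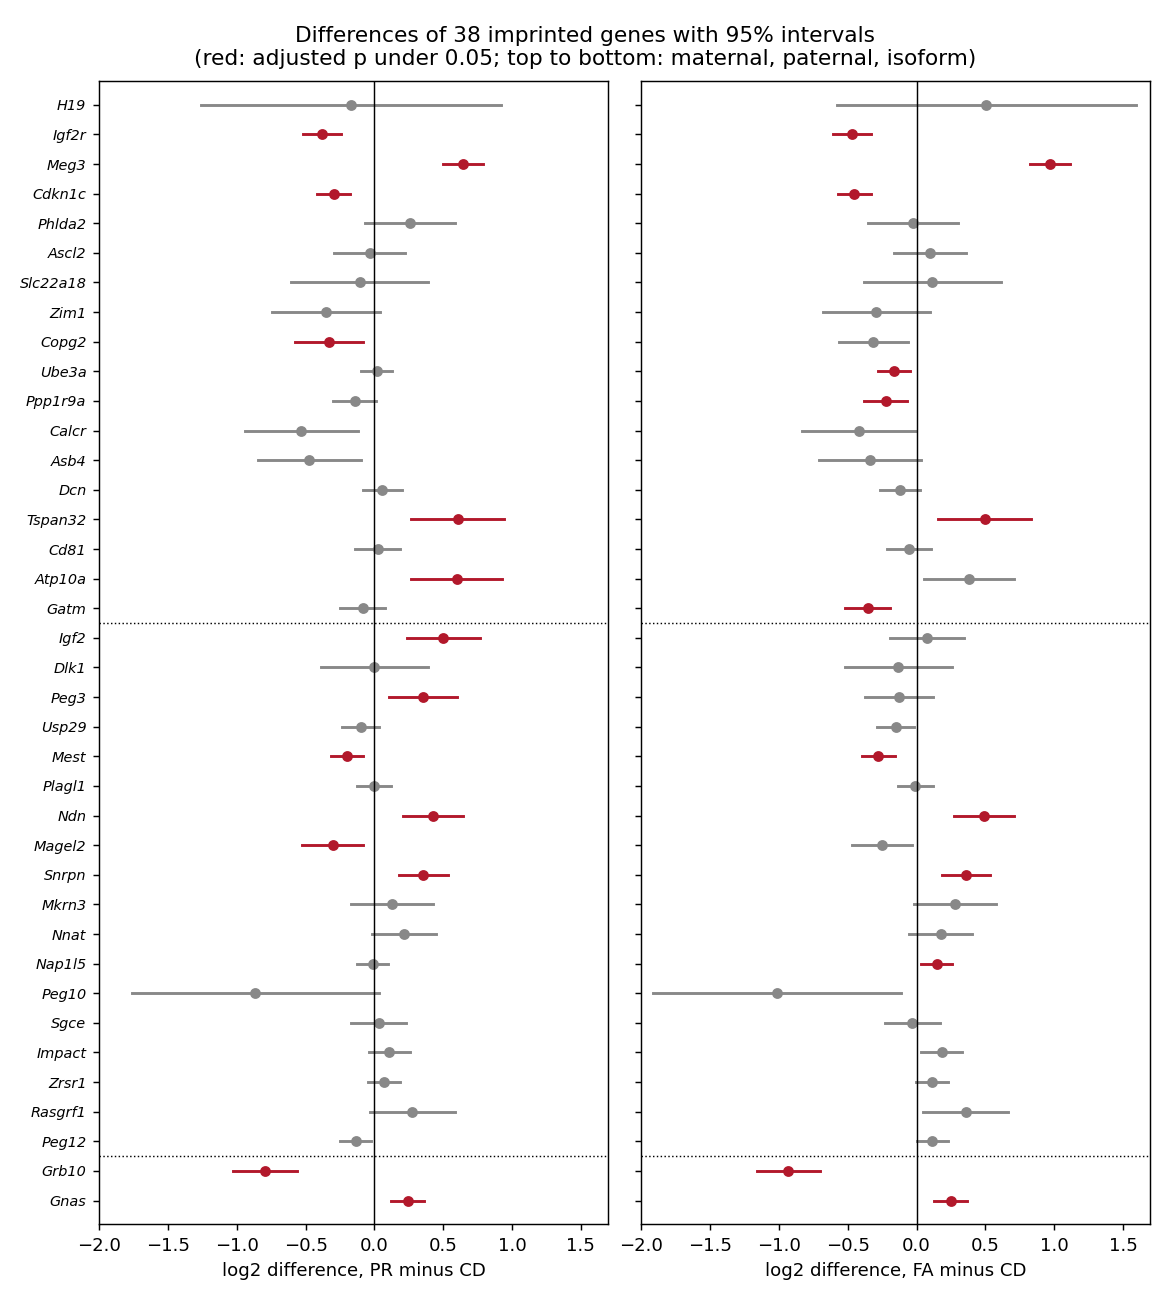
Log2 difference of each gene between PR and CD (left) and between FA and CD (right), with 95% intervals from limma; red marks an adjusted p under 0.05. Meg3 lay at 0.64 and 0.97 and Grb10 at -0.79 and -0.93, and intervals were wide for H19 and Peg10, where 1 array stood apart.

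The largest rise among called representative probes was that of Meg3, the maternally expressed noncoding RNA of the Dlk1-Meg3 cluster on mouse chromosome 12. It is abundant in neurons and is made from the allele on which the growth regulator Dlk1 is silent. Probes at 2 separate places of the RNA are printed because each of them was called higher in PR and in FA. They lie, on mm9, at chr12:110799558-110799617 and chr12:110809678-110809737, both on the plus strand.
Meg3 probe A_52_P196568: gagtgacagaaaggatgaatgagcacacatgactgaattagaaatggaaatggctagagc
Meg3 probe A_51_P455997: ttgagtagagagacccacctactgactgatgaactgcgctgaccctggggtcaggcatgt

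The representative probe, A_51_P455997, read 13.97, 14.05, 13.89, and 13.95 on the CD arrays, 14.70, 14.71, 14.43, and 14.60 on the PR arrays, and 14.89, 14.94, 14.90, and 15.00 on the FA arrays. No PR or FA mouse overlapped the CD mice, and the FA mice also lay above all PR mice. The difference was 0.64 ± 0.07 (SE, n = 4 per group; 1.56-fold, adjusted p = 9.94e-05) in PR and 0.97 ± 0.07 (1.96-fold, adjusted p = 3.23e-05) in FA. Between FA and PR it was 0.32 ± 0.07 with an adjusted p of 0.058. That adjusted p was 0.0357 with a normexp background correction and quantile normalization, 0.0344 with dim probes removed, and 0.0356 with a trended and robust variance model.

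The other printed Meg3 probe was also higher in both groups. A_52_P196568 read 11.92, 12.16, 11.90, and 11.98 on the CD arrays, 12.87, 12.98, 12.43, and 12.75 on the PR arrays, and 12.81, 12.76, 12.72, and 12.74 on the FA arrays. No PR or FA mouse overlapped the CD mice, and the difference was 0.77 in both groups (adjusted p = 0.000513 and 0.000438). PR and FA overlapped on this probe, with FA minus PR at -0.00, so levels in FA above all PR mice were seen on 1 of the 2 probes.

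Dlk1, the paternally expressed partner, codes for a Notch-like protein that holds back fat cell formation and is present in adult hypothalamic neurons. Its representative probe read 11.45, 11.62, 11.45, and 11.51 on the CD arrays, 11.43, 11.56, 11.59, and 11.44 on the PR arrays, and 11.54, 10.83, 11.86, and 11.27 on the FA arrays. The PR mice, at 11.43 to 11.59, overlapped the CD mice, at 11.45 to 11.62, and the FA mice spread over more than 1 log2 unit. The difference was -0.00 in PR (95% interval -0.39 to 0.39) and -0.13 in FA (-0.52 to 0.26), and neither Dlk1 probe was called. Mirg, a microRNA host transcript downstream of Meg3 and also maternal, was higher by 0.65 in PR (adjusted p = 0.00032) and by 0.78 in FA (adjusted p = 0.00011).

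**Figure D3:**
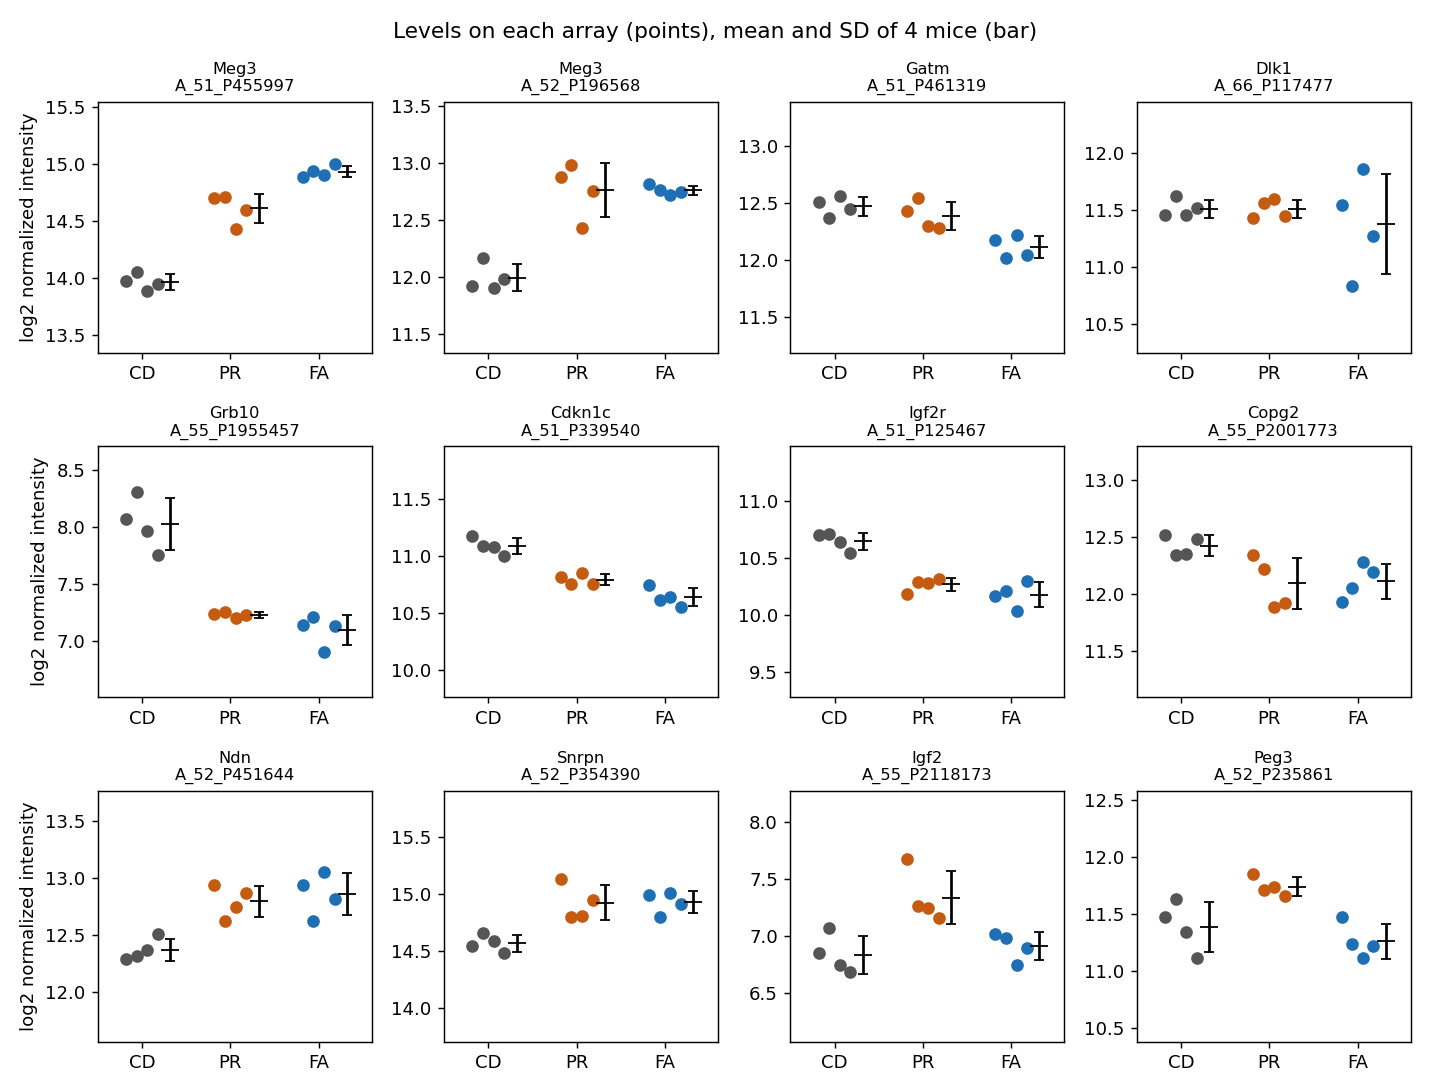
Log2 normalized intensity of 12 probes on each array (points) with the mean and SD of 4 mice (bars) for the CD, PR, and FA groups; every panel spans the same number of log2 units. The 2 Meg3 probes were higher and Grb10, Cdkn1c, and Igf2r lower in PR and FA with no overlap with CD, whereas Igf2 and Peg3 were called higher in PR and not in FA.

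CpG dinucleotides are the sites of DNA methylation, and the genes differ in how many their promoters hold. Promoters running from 250 bases before to 50 bases after a start were given by RefSeq (GRCm38.p6) for 32 of the 38 genes, 48 windows in all; H19, Cdkn1c, Peg10, Sgce, Impact, and Dcn had no entry. The median CpG number of a window was 20 for maternally expressed genes (19 windows), 12 for paternally expressed genes (23 windows), and 7 over all 32851 promoters. At least 20 CpG were held by 11 of the 19 maternal windows, by 3 of the 23 paternal windows, and by 26.5% of all promoters. The letters TGCCGC, the core of the site bound by the imprint-keeping factor Zfp57 when methylated, were found on either strand in 12 of the 48 windows, against 11.6% of all promoters. A match in these letters is a description and was not tied to binding or methylation. Genes with several listed starts gave several windows, some of them overlapping, so these counts and medians are of windows and not of genes.

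Promoters of 3 genes with called differences are printed, with CpG in capitals, to show how unlike they are. On GRCm38.p6 the windows of Grb10 belong to its 2 listed starts, both on the minus strand. They lie at chr11:12037371-12037670 with 45 CpG and at chr11:12027922-12028221 with 9 CpG. The window of the first Meg3 start lies at chr12:109540746-109541045 with 13 CpG, and that of the Prader-Willi gene Ndn at chr7:62348027-62348326 with 11 CpG, both on the plus strand. The first Grb10 window and the Meg3 window each hold 1 match to the Zfp57 core, and the other 2 hold 0. A second listed Meg3 start, with 1 CpG and 0 matches, is not printed.
Grb10 first start: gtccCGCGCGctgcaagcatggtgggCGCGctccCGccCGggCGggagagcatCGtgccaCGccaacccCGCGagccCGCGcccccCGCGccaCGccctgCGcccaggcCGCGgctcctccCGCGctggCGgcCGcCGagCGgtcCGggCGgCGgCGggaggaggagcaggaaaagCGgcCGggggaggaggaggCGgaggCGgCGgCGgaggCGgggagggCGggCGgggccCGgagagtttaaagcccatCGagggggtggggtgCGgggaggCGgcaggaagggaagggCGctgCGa
Grb10 second start: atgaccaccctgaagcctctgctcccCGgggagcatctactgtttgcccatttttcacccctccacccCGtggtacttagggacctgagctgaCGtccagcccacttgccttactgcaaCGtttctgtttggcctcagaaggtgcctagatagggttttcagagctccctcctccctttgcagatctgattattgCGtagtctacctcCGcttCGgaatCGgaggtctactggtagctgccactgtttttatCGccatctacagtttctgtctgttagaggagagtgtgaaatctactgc
Meg3 first start: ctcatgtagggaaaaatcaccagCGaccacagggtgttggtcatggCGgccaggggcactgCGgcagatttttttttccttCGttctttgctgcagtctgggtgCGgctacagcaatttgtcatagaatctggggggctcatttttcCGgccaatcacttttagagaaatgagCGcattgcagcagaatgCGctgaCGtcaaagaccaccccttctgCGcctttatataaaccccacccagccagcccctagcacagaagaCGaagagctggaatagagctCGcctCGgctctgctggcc
Ndn start: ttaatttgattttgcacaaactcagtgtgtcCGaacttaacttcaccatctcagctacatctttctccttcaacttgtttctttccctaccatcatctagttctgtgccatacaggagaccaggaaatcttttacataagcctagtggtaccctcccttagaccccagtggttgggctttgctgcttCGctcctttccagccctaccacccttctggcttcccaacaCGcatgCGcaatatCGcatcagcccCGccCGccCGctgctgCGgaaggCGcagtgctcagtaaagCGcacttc

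Grb10 showed the largest fall among representative probes that were called. It codes for an adaptor that binds the insulin and IGF1 receptors and holds back growth, and it is expressed from the maternal allele in most tissues and from the paternal allele in neurons. Its probe (mm9, chr11:11833165-11833224, minus strand) read 8.07, 8.31, 7.97, and 7.76 on the CD arrays, 7.24, 7.26, 7.20, and 7.23 on the PR arrays, and 7.14, 7.21, 6.91, and 7.13 on the FA arrays. The CD mice were above every PR and FA mouse, and the PR mice lay within a range of less than 0.1. The difference was -0.79 ± 0.10 (1.74-fold lower, adjusted p = 0.00038) in PR and -0.93 ± 0.10 (1.91-fold lower, adjusted p = 0.000143) in FA. The probe does not separate transcripts that start at the 2 promoters.

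Other regulators of IGF signalling and growth moved by less. Igf2r, listed here as maternally expressed, codes for the receptor that clears IGF2 for breakdown. It read 10.70, 10.71, 10.64, and 10.55 on the CD arrays, 10.19, 10.29, 10.28, and 10.32 on the PR arrays, and 10.17, 10.21, 10.04, and 10.30 on the FA arrays. All PR and FA mice lay below the CD mice, with differences of -0.38 ± 0.06 (1.3-fold lower, adjusted p = 0.00131) and -0.47 ± 0.06 (1.38-fold lower, adjusted p = 0.000315). Cdkn1c, a maternally expressed inhibitor of the cell cycle, read 11.17, 11.09, 11.08, and 11.00 on the CD arrays, 10.81, 10.75, 10.85, and 10.75 on the PR arrays, and 10.74, 10.61, 10.64, and 10.55 on the FA arrays. Again the groups did not overlap, and the differences were -0.30 ± 0.05 (adjusted p = 0.00241) and -0.45 ± 0.05 (adjusted p = 0.000178). In whole-brain RNA, fewer cells expressing a gene and less RNA per cell cannot be told apart.

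Igf2, a growth factor listed here as paternally expressed, rose in PR. In the adult brain it comes mostly from choroid plexus and meninges, and which alleles gave its RNA was not measured. Igf2 read 6.85, 7.07, 6.75, and 6.69 on the CD arrays, 7.68, 7.27, 7.25, and 7.16 on the PR arrays, and 7.02, 6.99, 6.75, and 6.90 on the FA arrays. The PR mice lay above all CD mice, by 0.50 ± 0.12 (1.41-fold, adjusted p = 0.0106), whereas FA differed from CD by 0.08 (95% interval -0.19 to 0.34). Between FA and PR the groups did not overlap either, with a difference of -0.43 and an adjusted p of 0.144. Of 9 choroid plexus markers, 1 was lower and 1 higher in PR, and of 9 markers of meninges and fibroblasts 1 was lower. Over all probes, 16.6% were called lower and 13.4% higher in PR. The summed intensity of the meningeal markers was 21264.4 to 22661.4 in CD and 21359 to 21732.8 in PR. That of the choroid plexus markers was 85650.2 to 92162.7 and 82278.5 to 93454.5, so both ranges overlapped. The choroid plexus sum came mostly from Ttr, at a mean of 16.18 in CD, against 11.90 for Clic6, the next brightest. The part of these tissues in the Igf2 values was not tested.

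H19, the maternally expressed noncoding RNA next to Igf2, read 6.72, 6.87, 6.67, and 6.80 on the CD arrays, 6.78, 6.47, 6.75, and 6.38 on the PR arrays, and 9.16, 6.51, 6.51, and 6.91 on the FA arrays. With the exception of FA replicate 1 the mice of all diets lay between 6.38 and 6.91. The difference between FA and CD was 0.51 (adjusted p = 0.456), and -0.12 without FA replicate 1. That array was also the highest for Col1a1, at 11.55 against 9.95 to 10.54 on the other 11 arrays, and for 5 of the 9 meningeal and fibroblast markers within FA. The part of such cells in the H19 value was not tested.

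The other 5 maternal genes share the domain of Cdkn1c, and most of them are imprinted in the placenta. Tspan32, a tetraspanin of blood cells, read 6.70, 6.73, 6.50, and 6.86 on the CD arrays, 7.25, 7.29, 7.24, and 7.43 on the PR arrays, and 7.72, 6.97, 7.05, and 7.03 on the FA arrays. All PR and FA mice were above the CD mice, by 0.60 ± 0.15 (adjusted p = 0.0131) and by 0.50 ± 0.15 (adjusted p = 0.0281). The FA call was lost without CD replicate 1 (adjusted p = 0.0548), 2 (0.0521), or 3 (0.0746), and the FA difference was 0.32 without FA replicate 1, which was the highest. With the Tukey test neither Tspan32 call was made (adjusted p = 0.0511 in PR and 0.0978 in FA), and with FA and CD fitted alone the FA call was lost (0.0685). Of the 2 other Tspan32 probes, well above background on 5 arrays and on 1 array, the second was called higher in PR. Of 4 blood markers, 0 were called in either comparison, beside 30% and 34.4% of all probes. All 4 are genes of red blood cells and do not mark other blood cells. The part of blood cells in the Tspan32 values was not tested.

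Cd81, a tetraspanin found on most cells, differed by 0.03 in PR (95% interval -0.14 to 0.19) and by -0.05 in FA (-0.22 to 0.11). Ascl2, a transcription factor of the trophoblast, differed by -0.04 and 0.10, and Phlda2 was not well above background. Slc22a18, an organic cation transporter, read 8.20, 8.08, 8.06, and 8.21 on the CD arrays, 7.99, 8.01, 8.06, and 8.07 on the PR arrays, and 8.02, 7.89, 9.12, and 7.99 on the FA arrays. Only FA replicate 3 stood outside the range of 7.89 to 8.21, and without it the FA difference went from 0.12 to -0.17 with an adjusted p of 0.0424. Kcnq1ot1, the paternal noncoding RNA that silences this domain, was lower by -0.67 in PR (adjusted p = 0.0028) and by -0.76 in FA (adjusted p = 0.0011).

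In the Prader-Willi/Angelman cluster of chromosome 7, 2 paternally expressed genes rose in both groups. The probes of Ndn and Snrpn are printed to show what was read (mm9, chr7:69493847-69493906 on the plus strand and chr7:67132330-67132389 on the minus strand).
Ndn probe A_52_P451644: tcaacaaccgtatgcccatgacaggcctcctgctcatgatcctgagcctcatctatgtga
Snrpn probe A_52_P354390: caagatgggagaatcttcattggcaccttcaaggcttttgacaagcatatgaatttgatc

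Ndn codes for necdin, a MAGE family protein that holds back division of neurons and is widespread in the brain. It read 12.29, 12.32, 12.37, and 12.51 on the CD arrays, 12.94, 12.63, 12.75, and 12.87 on the PR arrays, and 12.94, 12.63, 13.06, and 12.82 on the FA arrays. The CD mice lay below all others, with differences of 0.42 ± 0.10 (1.34-fold, adjusted p = 0.00906) in PR and 0.49 ± 0.10 (1.4-fold, adjusted p = 0.00362) in FA. Snrpn codes for the splicing protein SmN of neurons. It read 14.54, 14.66, 14.59, and 14.48 on the CD arrays, 15.13, 14.80, 14.81, and 14.95 on the PR arrays, and 14.99, 14.80, 15.01, and 14.91 on the FA arrays, with differences of 0.36 ± 0.08 in both groups (adjusted p = 0.00781 in PR and 0.00609 in FA). When scaled to the 75th percentile, the Snrpn difference in PR was 0.21 with an adjusted p of 0.0573.

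Another Snrpn probe, A_55_P1998194, was higher by 0.54 (adjusted p = 0.00391) and 0.45 (adjusted p = 0.0088). The probe A_55_P1990116 differed by -0.08 in both groups (adjusted p = 0.375 and 0.405), so 2 of the 3 Snrpn probes rose. It lies on mm9 at chr7:67127426-67127485, the lowest position of the 3 on a minus-strand gene.

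Magel2, a MAGE family gene next to Ndn that is expressed mainly in the hypothalamus, went the other way. It read 9.80, 9.85, 9.79, and 9.68 on the CD arrays, 9.42, 9.60, 9.44, and 9.47 on the PR arrays, and 9.46, 9.26, 9.78, and 9.64 on the FA arrays. All PR mice were below the CD mice, by -0.30 ± 0.10 (adjusted p = 0.0426), and FA overlapped CD, with a difference of -0.25 (adjusted p = 0.0762; 0.0197 without FA replicate 3). The PR call was lost without CD replicate 1, 2, or 3, PR replicate 1, 3, or 4, or FA replicate 1 or 4, with adjusted p from 0.0502 to 0.0954, and with the replicate block (0.082) or the Tukey test (0.128). Of 8 hypothalamic markers 2 were lower in PR and in FA, Pmch (-0.59 and -0.43) and Trh (-0.44 and -0.42), and none was higher. Over all probes, 16.6% were called lower in PR and 18% in FA. Their summed intensity was 28896.5 to 32844.8 in CD, 22525.2 to 24957.2 in PR, and 17224.8 to 30525.1 in FA. All 8 were well above background on all 12 arrays, and their part in the Magel2 value was not tested.

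The other paternal genes of the cluster were not called on their representative probes. Mkrn3, a ubiquitin ligase that restrains puberty, differed by 0.13 in PR and 0.28 in FA (adjusted p = 0.135; 0.0193 without FA replicate 1). A dimmer Mkrn3 probe, well above background on 11 arrays, was called in FA at 0.74 (adjusted p = 0.0172). Peg12, related to the GSK3 inhibitor FRAT1, read 8.94, 8.96, 8.92, and 8.98 on the CD arrays, 8.86, 8.75, 8.86, and 8.80 on the PR arrays, and 8.99, 9.20, 9.07, and 9.01 on the FA arrays. The 3 groups did not overlap, with PR lowest and FA highest, but the steps were small: -0.13 in PR (adjusted p = 0.07; 0.0337 without FA replicate 2) and 0.11 in FA (adjusted p = 0.108). Between FA and PR Peg12 differed by 0.25 ± 0.05 with an adjusted p of 0.0601, which was 0.0365 with dim probes removed and 0.0469 with a trended and robust variance model.

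Both maternal genes of the cluster were called in 1 comparison each. Ube3a, the ubiquitin ligase lost in Angelman syndrome and silent on the paternal allele in neurons, read 9.36, 9.34, 9.45, and 9.48 on the CD arrays, 9.45, 9.47, 9.35, and 9.42 on the PR arrays, and 9.32, 9.16, 9.22, and 9.28 on the FA arrays. It was lower in FA by -0.16 ± 0.05 (adjusted p = 0.0324) and differed by 0.02 in PR. The FA call was lost without CD replicate 3 (adjusted p = 0.0795) or 4 (0.0731), or FA replicate 2 (0.0821) or 3 (0.075), and with the replicate block (0.057), the 2 groups alone (0.06), or the Tukey test (0.0574). A second Ube3a probe was called higher in FA but was well above background on 0 arrays.

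Atp10a, a lipid flippase, read 6.47, 6.42, 6.62, and 7.03 on the CD arrays, 7.19, 7.07, 7.22, and 7.45 on the PR arrays, and 7.02, 6.84, 6.89, and 7.31 on the FA arrays. It was higher in PR by 0.60 ± 0.15 (1.51-fold, adjusted p = 0.0123), with no overlap. In FA it differed by 0.38 (adjusted p = 0.0693; 0.011 without CD replicate 4).

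In the Peg3 cluster, Peg3 itself, a paternally expressed zinc finger protein tied to maternal care and body temperature, was called higher in PR and not in FA. It read 11.47, 11.63, 11.34, and 11.11 on the CD arrays, 11.85, 11.71, 11.74, and 11.66 on the PR arrays, and 11.47, 11.24, 11.11, and 11.22 on the FA arrays. The difference was 0.35 ± 0.11 in PR (adjusted p = 0.0352) and -0.13 in FA (adjusted p = 0.403), and the FA mice lay below all PR mice (FA minus PR -0.48, adjusted p = 0.0832; 0.0495 with dim probes removed). The PR call was lost without CD replicate 3 or 4 or without any of the 4 PR mice, with adjusted p from 0.0525 to 0.0874. It was also lost with normexp (adjusted p = 0.0742), with the PR and CD groups fitted alone (0.0551), with the Tukey test (0.113), and with the mean of both Peg3 probes, where the difference was 0.0975 (adjusted p = 0.541). The other Peg3 probe differed by -0.16 in PR and was lower in FA by -0.35 (adjusted p = 0.0476). Usp29, a paternal ubiquitin protease gene that shares the Peg3 promoter region in the other orientation, differed by -0.10 and -0.15 (adjusted p = 0.0803 in FA; 0.0411 without CD replicate 2). Zim1, a maternal zinc finger gene, differed by -0.35 and -0.29 and was not called.

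Mest and Copg2 are neighbours that run in opposite directions on chromosome 6. Mest, a paternal gene for a hydrolase-like enzyme, read 10.46, 10.25, 10.45, and 10.43 on the CD arrays, 10.19, 10.25, 10.15, and 10.20 on the PR arrays, and 10.08, 10.17, 10.15, and 10.08 on the FA arrays. It was lower by -0.20 ± 0.05 in PR (adjusted p = 0.017) and by -0.28 ± 0.05 in FA (adjusted p = 0.00269). Of its 2 other probes, 1 was called lower in FA and not in PR, by -0.20 (adjusted p = 0.0399), and the other differed by 0.14 and 0.06. With the mean of the 3 Mest probes both calls were lost, at -0.0319 in PR (adjusted p = 0.673) and -0.14 in FA (adjusted p = 0.0568). Copg2, a coat protein of the secretory pathway, read 12.52, 12.34, 12.35, and 12.48 on the CD arrays, 12.34, 12.22, 11.89, and 11.92 on the PR arrays, and 11.93, 12.05, 12.28, and 12.19 on the FA arrays.

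All PR and FA mice lay below the CD mice for Copg2, PR replicate 1 by the smallest margin, with differences of -0.33 ± 0.11 (adjusted p = 0.0473) and -0.31 ± 0.11 (adjusted p = 0.0528). Its other probe was lower in both, by -0.52 (adjusted p = 0.0113) and -0.44 (adjusted p = 0.0215). The PR call on the first probe was lost without any 1 of the CD mice, PR replicate 3 or 4, or FA replicate 2 or 4, with adjusted p from 0.0596 to 0.123, and with the replicate block (0.0978), the 2 groups alone (0.0679), or the Tukey test (0.145). The FA adjusted p fell below 0.05 without PR replicate 1 (0.0341) or 3 (0.047) or FA replicate 3 (0.0421).

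Gnas codes for the stimulatory G protein alpha subunit and, through other first exons, for XLas and NESP55, each with its own imprint. The probe nearest the end of the gene (mm9, chr2:174171933-174171992, plus strand) read 16.68, 16.58, 16.76, and 16.76 on the CD arrays, 16.95, 16.91, 16.95, and 16.94 on the PR arrays, and 17.03, 16.85, 16.97, and 16.93 on the FA arrays. It was higher in PR by 0.24 ± 0.05 (adjusted p = 0.00695) and in FA by 0.25 ± 0.05 (adjusted p = 0.00505), with no overlap. With scaling to the 75th percentile these were 0.02 (adjusted p = 0.778) and 0.07 (adjusted p = 0.298). The probe was the brightest of all members, and for the mean of the 4 Gnas probes the differences were -0.07 and -0.02.

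Another Gnas probe lay at the lowest position of the probes of the gene (mm9, chr2:174122337-174122396, plus strand). The annotation used here names no exon for this probe. It read 5.63, 5.83, 5.80, and 5.86 on the CD arrays, 4.90, 5.46, 5.17, and 5.57 on the PR arrays, and 5.72, 5.29, 5.86, and 5.67 on the FA arrays. It was lower in PR by -0.50 ± 0.16 (adjusted p = 0.034) and differed by -0.15 in FA. A further probe at chr2:174163501-174163560 differed by -0.05 and -0.08, and the last was well above background on 1 array.

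Gatm makes the creatine precursor guanidinoacetate, and its imprint is placental. It read 12.51, 12.37, 12.56, and 12.45 on the CD arrays, 12.43, 12.55, 12.30, and 12.28 on the PR arrays, and 12.18, 12.02, 12.22, and 12.05 on the FA arrays. All FA mice lay below the CD mice and the PR mice, by -0.36 ± 0.07 against CD (1.28-fold lower, adjusted p = 0.0044) and by -0.27 against PR (adjusted p = 0.136). PR differed from CD by -0.09 (95% interval -0.25 to 0.08).

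The Peg10-Sgce cluster on chromosome 6 held few calls. Ppp1r9a, which codes for the synaptic scaffold neurabin, read 14.77, 14.53, 14.61, and 14.54 on the CD arrays, 14.37, 14.53, 14.52, and 14.45 on the PR arrays, and 14.34, 14.46, 14.26, and 14.49 on the FA arrays. It was lower in FA by -0.22 ± 0.07 (adjusted p = 0.0325), a call lost without CD replicate 1 (adjusted p = 0.0799) or 3 (0.0633) or FA replicate 1 (0.0779) or 3 (0.0873), and with the replicate block (0.0762), the 2 groups alone (0.0618), the Tukey test (0.0844), or the mean of its probes (0.067). Sgce, the epsilon sarcoglycan gene whose loss causes myoclonus dystonia, differed by 0.03 and -0.03.

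Calcr, the maternally expressed calcitonin receptor of hypothalamic neurons, read 7.92, 7.67, 7.90, and 7.99 on the CD arrays, 7.25, 7.48, 7.32, and 7.30 on the PR arrays, and 7.60, 6.82, 7.88, and 7.52 on the FA arrays. The PR mice lay below the CD mice by -0.53 ± 0.19 with an adjusted p of 0.0523, which was 0.00342 without FA replicate 2 and 0.0324 without FA replicate 3. Asb4, a maternal hypothalamic gene for a SOCS box protein, read 9.36, 9.16, 9.17, and 9.04 on the CD arrays, 8.69, 8.83, 8.67, and 8.65 on the PR arrays, and 8.89, 8.28, 9.25, and 8.95 on the FA arrays. It was lower in PR by -0.47 ± 0.17 with an adjusted p of 0.0576, which was 0.00526 without FA replicate 2 and 0.0315 without FA replicate 3. In FA the adjusted p of Calcr was 0.107 and that of Asb4 0.148, and without FA replicate 3 they were 0.0367 and 0.042. The test pools the spread of all 3 groups, and in these genes the FA mice spread the most.

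Peg10, a paternal gene derived from a retrotransposon and needed in the placenta, read 5.82, 7.58, 5.77, and 5.60 on the CD arrays, 5.24, 4.94, 6.01, and 5.13 on the PR arrays, and 5.28, 5.30, 5.27, and 4.86 on the FA arrays. The FA mice lay below all CD mice, and the PR mice overlapped the CD mice. Differences of -0.86 in PR (adjusted p = 0.135) and -1.01 in FA (adjusted p = 0.0771) rested in part on CD replicate 2, and without it they were -0.40 and -0.55. None of these 4 differences was called.

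Loci with 1 member held few calls apart from Grb10, Igf2r, Gnas, and Gatm. Nap1l5, a paternal gene for a nucleosome assembly protein of neurons, read 14.83, 14.75, 14.81, and 14.73 on the CD arrays, 14.70, 14.75, 14.83, and 14.79 on the PR arrays, and 14.97, 14.81, 15.00, and 14.92 on the FA arrays. It was higher in FA by 0.15 ± 0.05 (adjusted p = 0.0472), and its other probe by 0.44 (adjusted p = 0.014). On the first probe the call was lost without any 1 of the CD mice, PR replicate 2, 3, or 4, or FA replicate 1, 3, or 4, with adjusted p from 0.0537 to 0.12, and with scaling to the 75th percentile the difference was 0.02 (adjusted p = 0.815). It was also lost with quantile normalization (adjusted p = 0.0583), normexp (0.0515), the replicate block (0.0524), the 2 groups alone (0.0779), and the Tukey test (0.0815).

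Plagl1, a paternal zinc finger regulator of growth, read 12.76, 12.68, 12.76, and 12.74 on the CD arrays, 12.90, 12.67, 12.64, and 12.73 on the PR arrays, and 12.79, 12.71, 12.70, and 12.71 on the FA arrays, with differences of -0.00 (95% interval -0.13 to 0.12) and -0.01 (-0.14 to 0.12), and 0 of its 4 probes were called. Zrsr1, a paternal splicing factor gene, read 13.20, 13.11, 13.21, and 13.11 on the CD arrays, 13.18, 13.17, 13.33, and 13.25 on the PR arrays, and 13.27, 13.17, 13.31, and 13.33 on the FA arrays. Its groups overlapped, with differences of 0.07 and 0.11. Dcn, the proteoglycan decorin, read 13.10, 12.91, 13.06, and 13.03 on the CD arrays, 13.05, 13.09, 13.15, and 13.03 on the PR arrays, and 13.07, 12.80, 12.88, and 12.86 on the FA arrays, with differences of 0.06 and -0.12 (adjusted p = 0.18 in FA; 0.0408 without FA replicate 1).

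Nnat, a paternal proteolipid of the endoplasmic reticulum of neurons, read 12.71, 12.77, 12.74, and 12.75 on the CD arrays, 13.02, 12.80, 12.92, and 13.09 on the PR arrays, and 13.04, 12.64, 13.16, and 12.83 on the FA arrays. It differed by 0.21 in PR (adjusted p = 0.151) and by 0.17 in FA (adjusted p = 0.225; 0.0401 without FA replicate 2). Rasgrf1, a paternal exchange factor for Ras in neurons, read 13.21, 13.31, 13.34, and 13.34 on the CD arrays, 13.75, 13.48, 13.51, and 13.55 on the PR arrays, and 13.53, 14.15, 13.47, and 13.47 on the FA arrays. FA replicate 2 stood above all others, and the differences were 0.27 in PR (adjusted p = 0.162; 0.0102 without FA replicate 2) and 0.36 in FA (adjusted p = 0.0697). The second Rasgrf1 probe, well above background on all 12 arrays, differed by -0.07 in PR (adjusted p = 0.836) and by 0.30 in FA (adjusted p = 0.278).

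Impact, a paternal gene that restrains the amino acid sensing kinase GCN2, read 14.66, 14.68, 14.82, and 14.96 on the CD arrays, 14.80, 14.96, 14.87, and 14.93 on the PR arrays, and 14.97, 14.92, 15.02, and 14.93 on the FA arrays. On this probe it differed by 0.11 in PR (adjusted p = 0.258; 0.0468 without CD replicate 4) and by 0.18 in FA (adjusted p = 0.0632; 0.00946 without CD replicate 4). Its second probe differed in the other direction, reading 8.76, 8.84, 9.16, and 8.83 on the CD arrays, 8.99, 8.16, 8.02, and 7.78 on the PR arrays, and 7.98, 7.61, 7.24, and 7.51 on the FA arrays. It was lower in FA by -1.31 ± 0.24 (2.48-fold, adjusted p = 0.00222) with no overlap, and in PR by -0.66 with an adjusted p of 0.0642. The second Impact probe passed the background limit in each of the 12 brains.

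**Figure D4:**
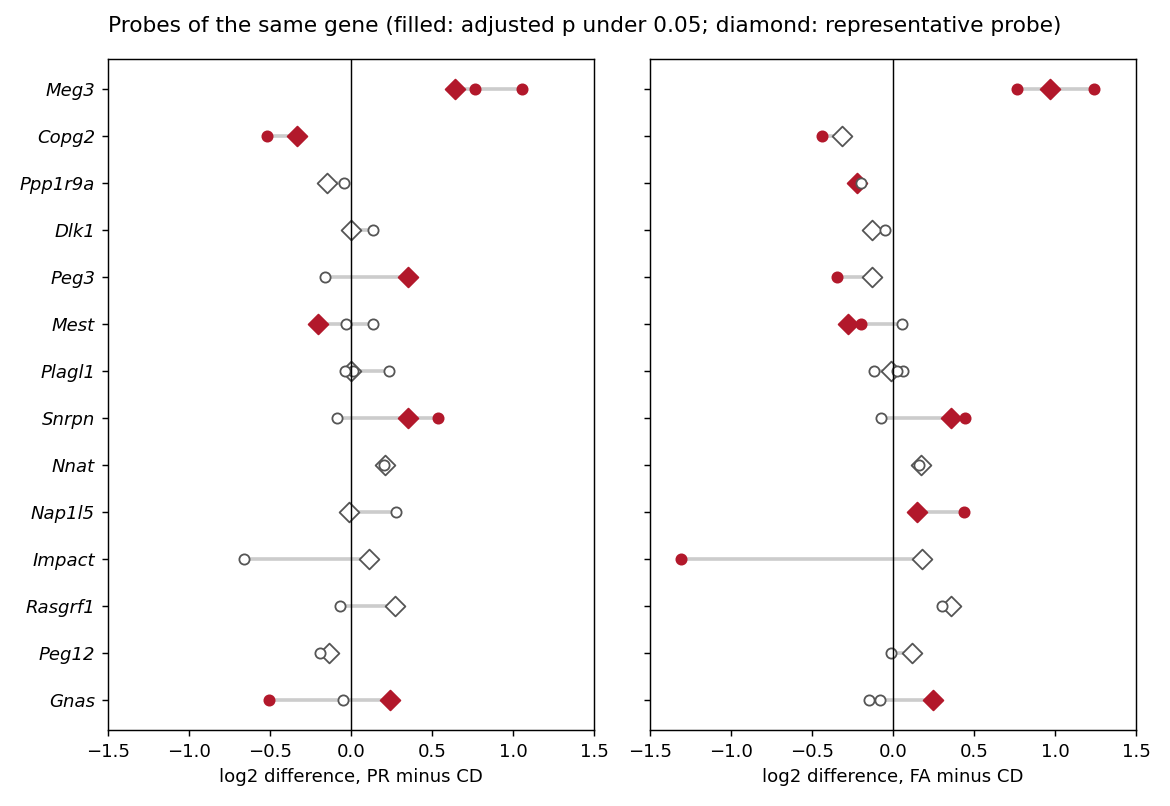
Log2 difference of every probe of the 14 genes with 2 or more probes well above background on all 12 arrays, for PR (left) and FA (right) against CD; filled symbols have an adjusted p under 0.05 and diamonds are representative probes. Probes of Meg3 lay on 1 side of 0, and those of Impact, Snrpn, Gnas, and Peg3 in PR lay on both sides.

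Probes of the same gene often read differently. For the 14 genes with 2 or more probes well above background on all 12 arrays, the probes had the same sign in 5 genes in PR and in 8 genes in FA. All probes of a gene were called in 2 genes in each comparison, Meg3 and Copg2 in PR, and Meg3 and Nap1l5 in FA. In 4 genes in PR and 7 genes in FA some probes were called and others not. Probes of a gene can lie in different transcripts, and which transcripts differed was not tested.

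**Figure D5:**
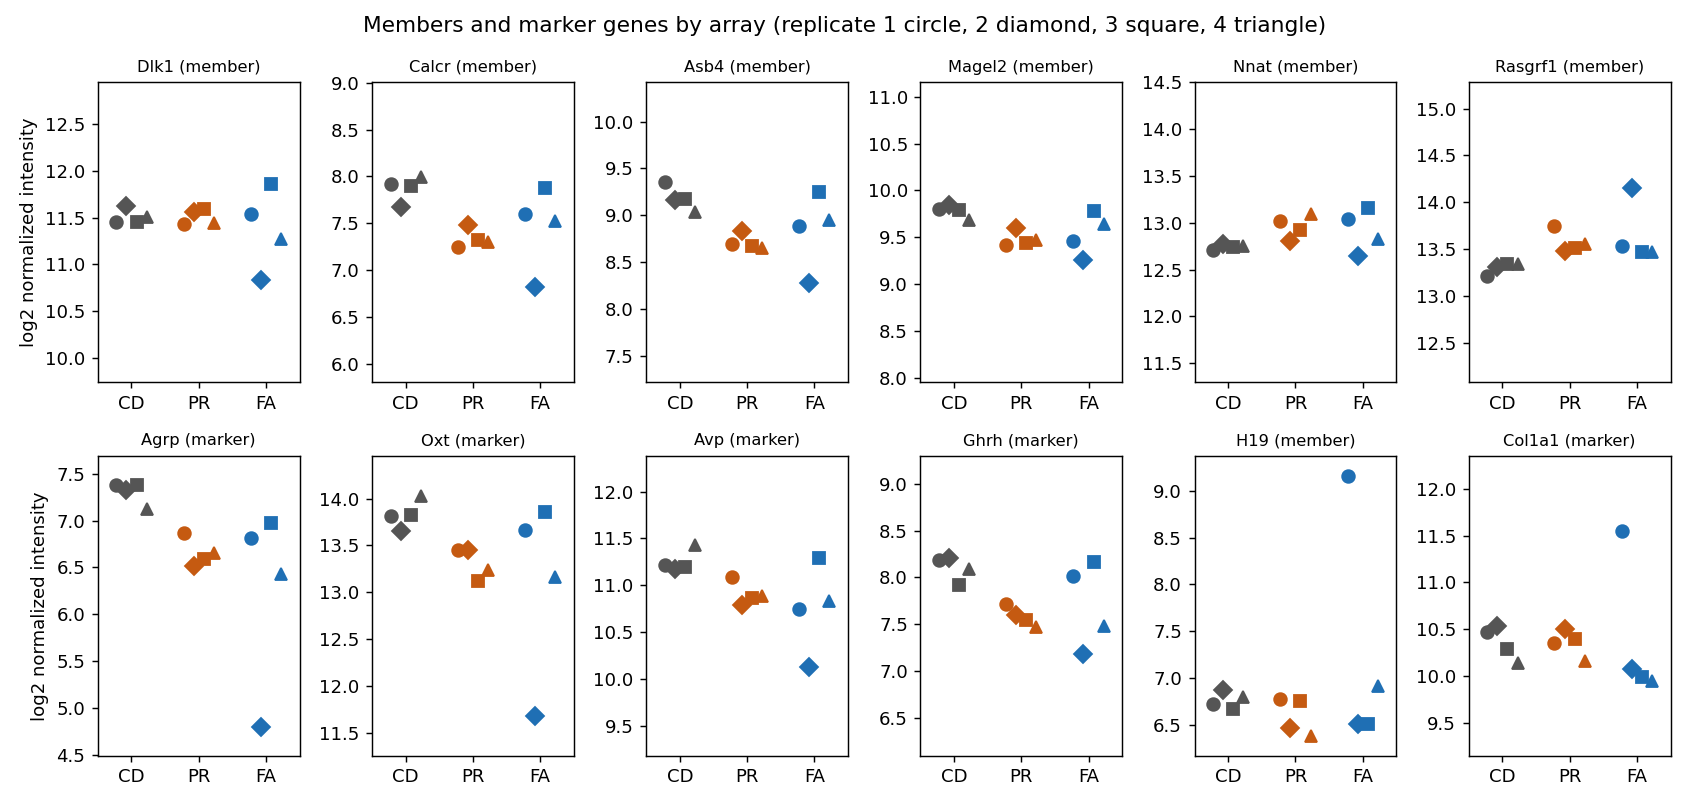
Log2 normalized intensity of 7 imprinted genes and 5 marker genes on each array, with the replicate given by the symbol; every panel spans the same number of log2 units. FA replicate 2 (blue diamond) was lowest for Dlk1, Calcr, Asb4, Magel2, Nnat, and the hypothalamic genes Agrp, Oxt, Avp, and Ghrh, and FA replicate 1 (blue circle) was highest for H19 and Col1a1.

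The FA mice had more imprinted genes of wide spread than the CD or PR mice. Of the 37 representative probes well above background on all arrays, 13 had an SD of at least 0.2 in FA, against 4 in CD and 6 in PR. The share in FA was 35.1%, against 10.5% of all 23753 such probes, and it was 24.3% against 8.94% without FA replicate 2. In PR the shares were 16.2% and 9.59%, and in CD 10.8% and 16.5%. The measure was chosen after the values were seen, and the difference between shares was not tested.

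FA replicate 2 was the lowest of the FA mice in 21 of the 37 genes, and FA replicate 3 the highest in 15. In FA replicate 2, Dlk1 was at 10.83, Calcr at 6.82, Asb4 at 8.28, and Magel2 at 9.26, whereas FA replicate 3 was at 11.86, 7.88, 9.25, and 9.78. Hypothalamic peptides moved with them: Agrp was at 4.80 in FA replicate 2 and 6.98 in FA replicate 3, Oxt at 11.68 and 13.86, Avp at 10.13 and 11.29, and Ghrh at 7.18 and 8.16. FA replicate 2 was the lowest of the FA mice for 5 of the 8 hypothalamic markers and FA replicate 3 the highest for 7. Hcrt, made by neurons of the lateral hypothalamus, was highest of the FA mice in FA replicate 2, at 12.48, and Crh ran from 10.88 to 11.21 in FA. How far the amount of hypothalamus in each sample entered these values was not tested.

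Without FA replicate 2, 10 probes of imprinted genes were lower and 14 higher in PR than in CD, and 8 were lower and 13 higher in FA. Without FA replicate 1 the counts were 7 and 12 in PR, and 8 and 12 in FA. Meg3, Grb10, Cdkn1c, Igf2r, Ndn, Snrpn, and Gatm in FA, and Meg3, Grb10, Cdkn1c, Igf2r, Ndn, Igf2, and Atp10a in PR were called without any 1 of the 12 arrays and under all 10 alternatives.

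Of 39 other imprinted genes on the arrays, 4 were lower and 8 higher in PR, and 7 were lower and 7 higher in FA, with medians of 0.02 and -0.01, beside 30% and 34.4% of all probes called. Those at least 1.5-fold different besides Mirg and Kcnq1ot1 were Htr2a, a serotonin receptor (-0.94 and -0.96), Pon2, a lactonase (0.63 and 0.67), Zdbf2 (-0.72 in FA), and Zim3 (0.63 in PR). Of 14 factors that keep or read imprints, 4 were lower in PR and 3 in FA and none was higher, beside 16.6% and 18% of all probes called lower, and every one of those calls was under 1.5-fold. Among them, the maintenance methyltransferase Dnmt1 differed by -0.15 and -0.29 and the de novo methyltransferase Dnmt3a by -0.25 and -0.33. Arid4b differed by -0.27 and -0.23. Uhrf1 was called lower in PR (-0.48) and was not called in FA (-0.10). Zfp57 was not called.

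Marker lists of other cell types held calls in both comparisons, beside 30% of all probes in PR and 34.4% in FA. In PR the lower and higher calls were 2 and 0 of 8 pituitary (Gh and Prl), 1 and 0 of 4 neuronal, 0 and 1 of 5 oligodendrocyte, 1 and 2 of 5 astrocyte, 1 and 0 of 5 microglial, and 0 and 2 of 5 endothelial markers. In FA they were 2 and 1 pituitary, 0 and 0 neuronal, 0 and 1 oligodendrocyte, 1 and 1 astrocyte, 2 and 0 microglial, and 2 and 2 endothelial, with 1 choroid plexus and 4 meningeal markers lower.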

How the data were processed

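Per the labels, RNA of 12 whole brains was hybridized to 1-colour Agilent arrays, and the authors quantified spot intensities with Agilent Feature Extraction 11.0.1.1, whose output also marks the spots well above background. Probe positions are on mm9. The deposited table holds 1 qspline-normalized intensity per probe on the linear scale as the authors left it. The log2 of that deposited intensity was analysed here. The 11 methylation samples were not analysed here, and the values of 1 probe are counted but not reported here. The number of arrays limits the precision.

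The background limit was passed on an array when at least 50% of a probe's spots carried the mark. All groups entered 1 limma fit (limma 3.58.1, R 4.3.3), with Benjamini-Hochberg adjustment over all 39429 probes. Alternatives, made from the deposited spot intensities where needed, were normexp (offset 50) before quantile normalization, quantile normalization alone, scaling to the 75th percentile, outlier spots missing, dim probes removed, a replicate block, a trended and robust variance model, fits of the compared groups alone, the Tukey test of the methods, the mean of all probes of a gene, and leaving out each array. The fit was tested on simulated data.

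Values by array were given for members called on a representative probe, plus 1 gene for each cluster without one; Dlk1, H19, Slc22a18, Peg10, Peg12, Calcr, and Asb4 were added after their values were seen. Other imprinted genes and factors are named when called and at least 1.5-fold different. Dnmt1, Dnmt3a, Arid4b, Uhrf1, and Zfp57 were added. Members and lists were chosen with earlier results of these data known. Figures and tables were made with Python 3.11.15, pandas 2.3.3, and matplotlib 3.10.9.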

Additional observations from a re-analysis of the deposited data

Results flagged for a closer look

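In 10 of 114 sets of 4 mice (38 genes in 3 diets), the highest or lowest mouse stood apart from the other 3 by Dixon's test; chance alone marks about 1 in 20 such sets. In FA these were H19 at 9.16 and Tspan32 at 7.72 and Plagl1 at 12.79, all in replicate 1, Rasgrf1 at 14.15 in replicate 2, Slc22a18 at 9.12 in replicate 3, and Ascl2 at 6.97 and Peg10 at 4.86 in replicate 4. In CD they were Peg10 at 7.58 and Mest at 10.25 in replicate 2 and Phlda2 at 2.43, not well above background, in replicate 4. The gap to the nearest mouse was 2.25 for H19, 1.76 for Peg10 in CD, 1.1 for Slc22a18, 0.67 for Tspan32, and 0.62 for Rasgrf1. It was under 0.42 for the others.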

How the results depend on the processing

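Of 27 called differences of representative probes, 14 remained called under every alternative and without each array in turn. The Tukey test of the methods called 5 member probes lower in PR and 6 lower and 7 higher in FA. Scaling to the 75th percentile moved the paternal medians to -0.0121 in PR and 0.0327 in FA and the maternal medians to -0.14 and -0.23, and the mean of all probes of a gene moved the paternal FA median to 0.0197; the cause was not tested. Between FA and PR, 1 member probe was called lower with dim probes removed, and 1 (normexp), 2 (dim probes removed), and 2 (trended and robust variance) were called higher. With the mean of all probes, Gnas turned to -0.0737 in PR and -0.0209 in FA, Impact in FA to -0.56, and Ube3a in FA to 0.24, while Mest lost its calls (-0.0319 in PR and -0.14 in FA) and Peg3 in PR went to 0.0975, and without FA replicate 3 Slc22a18 in FA turned to -0.17. Leaving out 1 array at a time gave 5 to 10 probes lower and 10 to 14 higher in PR, 7 to 12 lower and 10 to 14 higher in FA, and 0 between FA and PR. The medians then ran from 0.04 to 0.07 (paternal) and -0.12 to -0.07 (maternal) in PR, from 0.06 to 0.11 and -0.18 to -0.11 in FA, and from -0.03 to 0.05 and -0.11 to -0.04 between FA and PR.

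Mice with the same replicate number were not shown to be paired: their deviations correlated above 0.1 in 3 of 12 cases. With the replicate number as a block, 5 member probes were lower and 12 higher in PR, and 8 lower and 13 higher in FA.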

Other observations

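Some further probes of imprinted genes also stood apart on 1 array. CD replicate 2 read 7.50 on the second Asb4 probe, against 4.71 to 5.69 on the other 11 arrays, and was also the highest array for Peg10, at 7.58; both genes lie in the Peg10-Sgce cluster, and the first Asb4 probe read 9.16 there. CD replicate 3 read 6.69 on the second Zim1 probe, against 4.14 to 4.65 elsewhere. The second Rasgrf1 probe read 13.06 in FA replicate 2, against 11.79 to 12.06 on the other arrays.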
